A study of Mus musculus with 14 samples.

Results

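Lungs of mice that had received an unrecycled carbon fibre (VCF) were set against lungs of mice that had received only the PBS vehicle, across all genes of a whole-genome array. The comparison rests on 8 of the 14 arrays of the series: VCF 1 to 3 and control 1 to 5, chosen by their labels. All mice were male C57BL/6N, the fibre was given into the trachea at 200 µg per mouse, and lung RNA was taken 1 month later. The other 6 arrays came from lungs given the same fibre after carbonization (CCF, 3 arrays) or after firing (RCF, 3 arrays), also at 200 µg and 1 month. The submitters describe the arrays of each group as independent biological samples. RNA was of the lung as taken out, so that fewer cells of a type and less RNA per cell cannot be told apart. Of 56605 probes, 37983 cleared the background on 3 or more of 14 arrays, and they gave 30579 genes, 17290 of them with a symbol. Signals are given as log2 values in which 0 is the 75th percentile of the array.

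Carbon fibres are stiff, poorly soluble particles. Particles that reach the alveoli are taken up by alveolar macrophages, which can release mediators that draw neutrophils from the blood, and a lasting response may go with scarring. Neutrophils carry large amounts of a few small proteins, among them the S100 proteins and, in the mouse, a cluster of stefins, which inhibit cysteine cathepsins. Dividing cells are seen in tissue RNA through the genes of S phase and mitosis, whose transcripts peak only in those phases.

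The arrays differed in brightness and in make-up. The 75th percentile of the processed intensity was 277, 1173 and 1201 in VCF 1 to 3 and ranged from 891 to 1831 in the control arrays, so that VCF 1 was dim. Slide 1 held VCF 1 and 2 and control 1 and 2, slide 2 held VCF 3 and control 3, and slide 3 held control 4 and 5 and no VCF array. The lung was clear in every array: Sftpc, the type 2 cell surfactant protein, lay at 7.61 to 9.78 in VCF lungs and 7.91 to 8.78 in control lungs, and Scgb1a1, the club cell secretoglobin, at 7.53 to 9.78 in VCF lungs and 7.79 to 8.86 in control lungs. Control 2 also carried other tissue. Its skeletal muscle, squamous epithelium and adipocyte lists stood 4.30, 4.52 and 2.65 above the control mean, as medians over list genes, and in VCF 2 the adipocyte list stood at 1.82. Control 1 and control 4 lay on different slides but were alike. The spread of a pair's log2 differences is given as the median absolute deviation from their median, scaled as an SD. Over 261 genes of 15 lists that vary between lungs this spread was 0.25 for control 1 and 4. Their deviations correlated at r = 0.91, and the other pairs of control arrays had spreads of 0.51 to 0.97. RCF 1 and 2 had a spread of 0.34 over these genes, against 0.53 and 0.68 for the other RCF pairs. For RCF 1 and 2 r was 0.38, while control 4 and RCF 3, of different groups, had r = 0.64. Over 24250 probes above background on all arrays, the spread was 0.26 for control 1 and 4 and 0.25 for control 4 and 5, which share slide 3. It was 0.34 for RCF 1 and 2 and 0.21 for RCF 2 and 3, also of slide 3. The counts of genes and the main lists are therefore also given with control 1 and 4 averaged as 1 sample, with RCF 1 and 2 averaged as well, and without control 2.

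**Figure D1:**
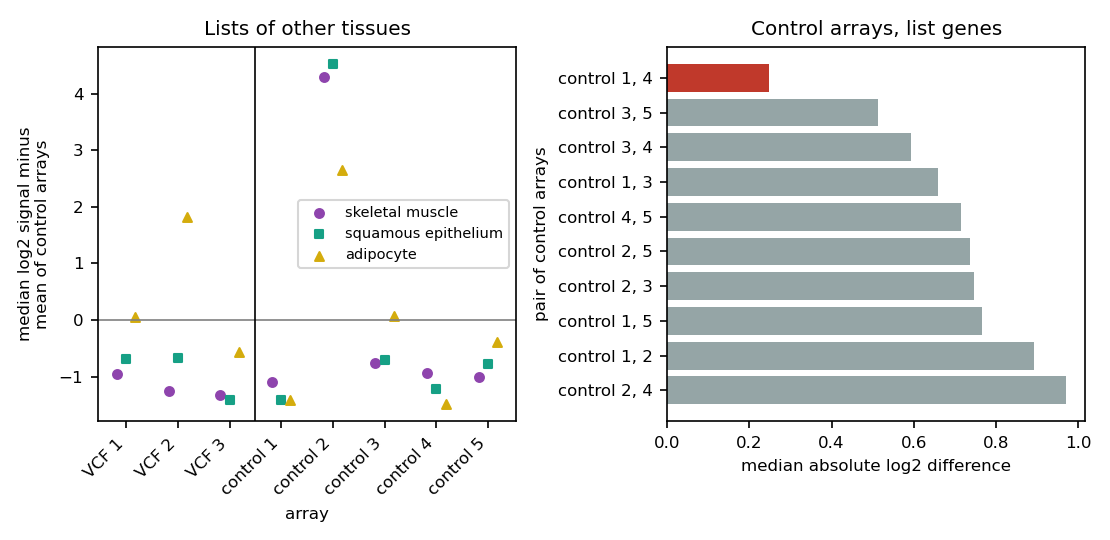
Left, level of the skeletal muscle, squamous epithelium and adipocyte lists in each VCF and control array (median over list genes of the log2 signal minus the mean of the control arrays). Right, spread of the log2 differences over list genes for each pair of control arrays. It is the median absolute deviation from their median, scaled as an SD, which the axis names median absolute log2 difference. Control 2 stands at 4.30, 4.52 and 2.65 on the left, and control 1 with control 4 has the smallest spread on the right, 0.25.

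At an adjusted p of 0.05 in limma, 9 genes were higher and 17 lower in VCF than in control lungs, 26 in all. These were 0.0294% and 0.0556% of the genes tested. At an unadjusted p below 0.05 there were 1520 genes higher (4.97%) and 1526 lower (4.99%). Of the 26 genes, 19 had an established symbol: Stfa1, Cstdc4, Eppin, Tcf23, Doc2b and Spp1 rose, and Crabp1, Ckap2, Cdca3, Ces2e, Shcbp1, Plvap, Colq, Kif20a, Hpcal4, Ces2b, Mki67, Aif1 and Ccne1 fell. In all 19 the VCF and control arrays did not overlap, in genes picked on these same arrays. Slide 1 and slide 2, taken alone, therefore had to give a difference of that direction, and slide 3 holds no VCF array. When the fit held slide as a fixed term, 9 of the 19 stayed past the threshold, and Stfa1 (adjusted p = 0.0641), Cstdc4 (0.0846), Spp1 (0.0846), Aif1 (0.0723), Ccne1 (0.0601), Hpcal4 (0.0601), Doc2b (0.0601), Shcbp1 (0.0705), Tcf23 (0.071) and Colq (0.0723) did not. Over all genes, VCF arrays lay wholly above the control arrays in 3.46% and wholly below them in 3.91%. The calls rested on few arrays. With control 1 and 4 averaged, limma called 0 genes (2463 at an unadjusted p below 0.05), and the adjusted p of the 26 genes ran from 0.063 to 0.133. With RCF 1 and 2 averaged as well, 1 gene passed, Crabp1 (adjusted p = 0.0373). With the replicate block, limma called 0 genes (2308 at an unadjusted p below 0.05), and the adjusted p of the 26 genes ran from 0.316 to 0.417. This block, a term for the array number, leaves control 4 and 5 out of the difference. Without control 2, 6 genes passed, among them Crabp1, Ces2e, Cdca3 and Stfa1.

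**Figure D2:**
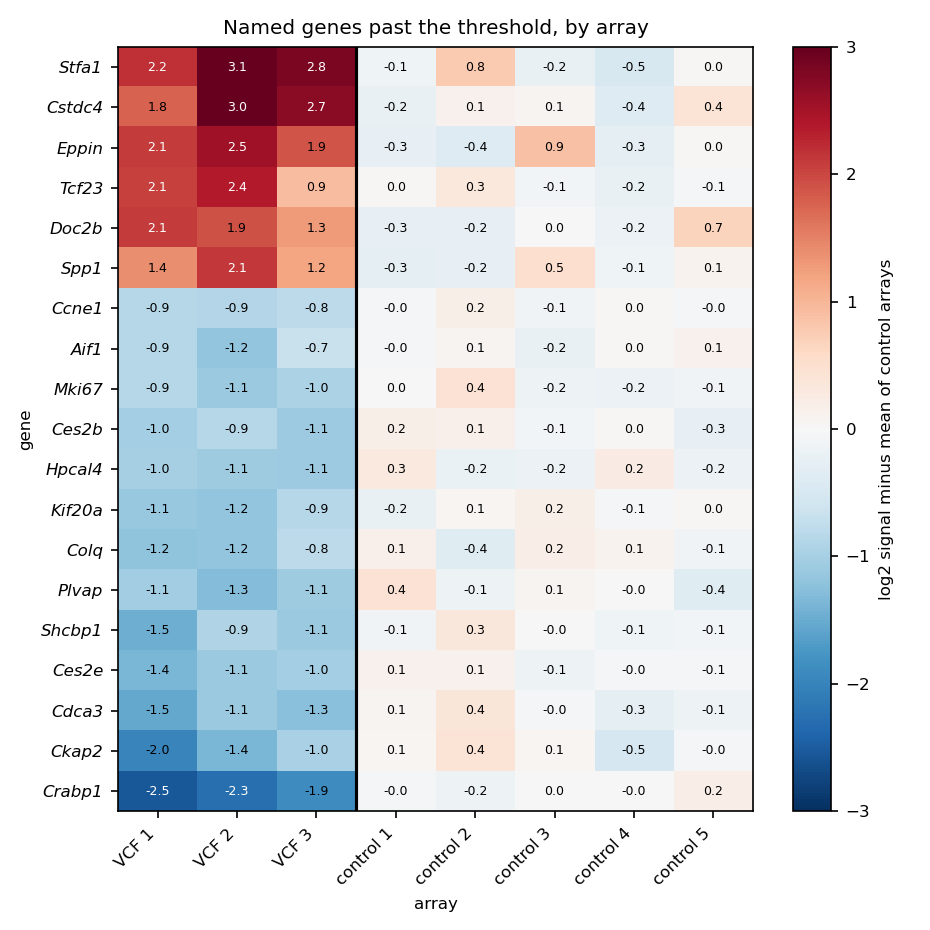
The 19 named genes past the threshold (rows) in the 3 VCF arrays, left of the line, and the 5 control arrays, right of it; each cell is the log2 signal minus the mean of the control arrays. Every VCF cell lies beyond every control cell of its row, and Stfa1 and Cstdc4 show the largest rises and Crabp1 the largest fall.

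The stefins of the cluster on chromosome 16 stood far higher in VCF lungs. Stfa1 had −0.82, 0.05 and −0.18 in VCF 1 to 3, against −3.15, −2.22, −3.23, −3.48 and −2.98 in control 1 to 5. Its VCF arrays lay more than 1 unit above the highest control, which was the array with other tissue, and the gene rose 6.47-fold (2.69 ± 0.37 on the log2 scale, limma's SE, adjusted p = 0.0401, and 0.343 with the replicate block). Cstdc4 had 0.18, 1.42 and 1.11 in VCF lungs, against −1.82, −1.48, −1.52, −1.98 and −1.20 in control lungs, and rose 5.66-fold (2.50 ± 0.38, adjusted p = 0.0484, and 0.364 with the replicate block). Here too no VCF array came near the controls, and VCF 1 was the lowest of the 3. Stfa2 and Stfa2l1 missed the threshold at 2.36 ± 0.43 (adjusted p = 0.0747) and 2.43 ± 0.46 (adjusted p = 0.0815), again with all VCF arrays above all control arrays. Cstdc5 and Stfa3 stood at 1.57 ± 0.73 and 1.52 ± 1.22, and in both control 2 was the highest control, at 2.07 and −0.64. Cstb, the stefin found in most cells, stood at −0.30 ± 0.17. Probes for these near-identical genes may share signal, so the members cannot be counted as separate observations.

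The promoters of the 4 stefins are shown because the genes moved together and the sequences are alike. They are RefSeq sequences of build GRCm38.p6, each from 250 bases before to 50 after the start, and capitals mark the longest run that all 4 share, a run of 16 bases around TTTAAA. Stfa1 lies at chr16:36276898-36277197, plus strand, Cstdc4 at chr16:36183962-36184261, plus strand, Stfa2 at chr16:36408314-36408613, minus strand, and Stfa2l1 at chr16:36156561-36156860, plus strand.
Stfa1: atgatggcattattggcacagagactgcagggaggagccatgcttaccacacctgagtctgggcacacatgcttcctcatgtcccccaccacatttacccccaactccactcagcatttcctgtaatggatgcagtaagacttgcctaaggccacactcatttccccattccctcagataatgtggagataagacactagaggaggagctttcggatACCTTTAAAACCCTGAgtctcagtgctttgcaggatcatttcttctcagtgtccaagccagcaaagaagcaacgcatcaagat
Cstdc4: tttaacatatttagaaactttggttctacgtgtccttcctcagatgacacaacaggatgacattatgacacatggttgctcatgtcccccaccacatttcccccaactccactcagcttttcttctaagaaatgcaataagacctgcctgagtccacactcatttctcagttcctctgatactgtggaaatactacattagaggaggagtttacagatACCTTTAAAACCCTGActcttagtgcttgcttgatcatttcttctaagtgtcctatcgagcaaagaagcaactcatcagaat
Stfa2: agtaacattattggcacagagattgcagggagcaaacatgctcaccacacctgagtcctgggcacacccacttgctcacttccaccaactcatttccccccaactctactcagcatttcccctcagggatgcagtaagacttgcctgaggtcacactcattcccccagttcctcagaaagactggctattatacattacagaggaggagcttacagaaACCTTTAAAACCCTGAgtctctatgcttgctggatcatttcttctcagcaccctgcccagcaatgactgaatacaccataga
Stfa2l1: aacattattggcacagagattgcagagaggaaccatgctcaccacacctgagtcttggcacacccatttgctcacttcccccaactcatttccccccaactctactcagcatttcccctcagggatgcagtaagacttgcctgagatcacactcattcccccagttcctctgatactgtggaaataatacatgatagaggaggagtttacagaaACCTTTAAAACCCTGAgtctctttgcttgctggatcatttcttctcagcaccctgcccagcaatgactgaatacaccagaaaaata
The pairs were identical at 68.4% (Cstdc4 with Stfa2) to 90.5% (Stfa2 with Stfa2l1) of aligned positions. The shared run was defined from these 4 promoters, so its presence in them was fixed in advance and is no sign of enrichment. On either strand it is in 5 of 27025 promoters of the same length (0.0185%), these 4 among them. Of the 6 measured stefins that matched a promoter, only these 4 have it. This describes the letters of these windows only.

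Other neutrophil genes lay above the controls without passing the test. Of 25 neutrophil markers measured 0 passed in either direction. At an unadjusted p below 0.05, 11 were higher and 0 lower, where 4.97% of all genes were higher and 4.99% lower. The list median was 0.59, and the median over all genes was 0.00. In 7 of the 25 all VCF arrays lay above all control arrays, against 3.46% of all genes. Mmp8, neutrophil collagenase, had −0.73, 0.51 and 0.57 in VCF lungs, against −1.75, −1.61, −1.38, −1.80 and −1.10 in control lungs, a difference of 1.65 ± 0.31 (adjusted p = 0.0816). S100a8, a calcium-binding subunit of calprotectin, stood at 5.11 to 5.81 in VCF lungs and 4.05 to 4.73 in control lungs. Retnlg, a resistin-like secreted protein, and Trem3, a myeloid receptor, differed by 1.18 ± 0.31 and 0.80 ± 0.22, also without overlap. Cxcr2, the receptor that draws neutrophils to CXC chemokines, differed by 1.62 ± 0.52, but VCF 1, at 0.06, lay below control 3 and 5, at 0.21 and 0.23. The list level was 0.47, 0.82 and 0.64 in VCF 1 to 3 and between −0.24 and 0.18 in control lungs. With the alike arrays averaged and control 2 left out, 8 neutrophil markers and 6 stefins were higher at an unadjusted p below 0.05, with medians of 0.70 and 2.42.

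Of the macrophage genes, Spp1 rose and Aif1 fell. Spp1, osteopontin, a secreted phosphoprotein that activated macrophages make, had 4.69, 5.42 and 4.48 in VCF lungs, against 3.03, 3.04, 3.81, 3.17 and 3.41 in control lungs. All VCF arrays lay above all controls, and control 3 came closest. The rise was 2.97-fold (1.57 ± 0.24, adjusted p = 0.0484, and 0.375 with the replicate block), and it was 2.02 within slide 1 and 0.67 within slide 2. Aif1, a calcium-binding protein of macrophages and microglia, had 0.03, −0.30 and 0.22 in VCF lungs, against 0.87, 0.98, 0.67, 0.92 and 1.02 in control lungs, and fell 1.88-fold (−0.91 ± 0.14, adjusted p = 0.0484, and 0.417 with the replicate block). Control 3 was again the nearest control, and the difference was −1.06 within slide 1 and −0.45 within slide 2. Of 21 alveolar macrophage markers 0 passed, with 2 higher and 1 lower at an unadjusted p below 0.05. The shares over all genes at that p were 4.97% higher and 4.99% lower. Chil3, a chitinase-like protein, stood at 6.39 to 7.48 in VCF lungs and 5.96 to 6.29 in control lungs (0.69, adjusted p = 0.289), while Marco, a scavenger receptor, stood at −0.04. Of 22 monocyte and interstitial macrophage genes 0 passed, 3 were higher and 4 lower at an unadjusted p below 0.05, and the median was −0.15, with 16 of 22 below 0. Cd14 (0.52 ± 0.13) and Ly6c2 (0.41 ± 0.11) lay without overlap above the controls, and Plac8 (−0.81 ± 0.24), Cx3cr1 (−0.77 ± 0.21), Adgre4 (−0.59 ± 0.16) and Ms4a7 (−0.37 ± 0.23) without overlap below them.

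Of 24 measured genes known from studies of inhaled particles, Spp1 alone passed, and 4 were higher and 0 lower at an unadjusted p below 0.05. For this and the lists below, the shares over all genes were 4.97% higher and 4.99% lower. Chil4, a chitinase-like protein, differed by 0.87 ± 0.19 (adjusted p = 0.117), with 0.21, −0.17 and −0.71 in VCF lungs and −1.33 to −0.86 in control lungs. Il1b, the inflammasome-processed cytokine, stood at 2.36, 2.89 and 3.28 in VCF lungs, against 0.82, 1.51, 1.32, 0.67 and 2.56 in control lungs. Control 5 reached into the VCF range, and control 1 and 4, the arrays that were alike, were the lowest. Cxcl5, an epithelial chemokine for neutrophils, stood at −5.61, −3.98 and −4.70 in VCF lungs and −7.61 to −5.27 in control lungs, near the background, with 2 of 3 VCF and 1 of 5 control arrays above it. The list median was −0.05. Interferon-stimulated genes had 0 of 28 members past the test, 1 higher and 3 lower at an unadjusted p below 0.05 and a median of −0.08. Likewise 0 passed of 25 complement genes (2 lower, median 0.04), 19 acute phase genes (3 higher, 0.04) and 30 NRF2 targets (1 higher and 2 lower, −0.04).

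Genes of mitosis were lower in VCF lungs. Of 46 measured 5 fell past the test, against 0.0556% of all genes, and 0 rose. At an unadjusted p below 0.05, 27 were lower and 0 higher, where 4.99% of all genes were lower and 4.97% higher. In 22 all VCF arrays lay below all control arrays, against 3.91% of all genes, and the list median was −0.75. The list level was −0.80, −0.91 and −0.51 in VCF 1 to 3, against −0.04, 0.33, 0.22, −0.18 and −0.15 in control 1 to 5. Control 2, with its other tissue, was the highest control, and without it the median was −0.72. With the alike arrays averaged as well, 0 mitotic genes passed, 26 were lower at an unadjusted p below 0.05 and the median was −0.74. Leaving out VCF 1, the dim array, gave −0.68, and normexp background correction with quantile scaling gave −0.40 with 21 lower at an unadjusted p below 0.05.

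Mki67, which coats mitotic chromosomes and marks cycling cells, had −0.84, −1.10 and −0.94 in VCF lungs, against 0.02, 0.44, −0.14, −0.16 and −0.09 in control lungs. The VCF arrays lay close together, well below the lowest control, and the gene fell 1.96-fold (−0.97 ± 0.15, adjusted p = 0.0484). Kif20a, a kinesin of the central spindle, had −3.58, −3.64 and −3.32 in VCF lungs, against −2.66, −2.39, −2.27, −2.51 and −2.42 in control lungs, and fell 2.09-fold (−1.06 ± 0.14, adjusted p = 0.0373). Cdca3, a trigger of mitotic entry, fell 2.46-fold, with −3.31, −2.89 and −3.03 in VCF lungs and −2.04 to −1.41 in control lungs. Ckap2, a spindle protein, had −4.30, −3.70 and −3.30 in VCF lungs, against −2.25, −1.91, −2.25, −2.81 and −2.35 in control lungs, and fell 2.73-fold. Its VCF arrays were the most spread of these genes, and of the 3 VCF arrays 2 were above background for Ckap2, Kif20a and Cdca3. Shcbp1, a midbody protein, was not well above background in any VCF array and was in 4 of 5 control arrays, and in control 2 it stood highest. Its fall therefore has no exact size, and 1.32-fold is a cautious estimate and not a tested minimum. Birc5, survivin of the chromosomal passenger complex, missed the threshold at −0.98 ± 0.17 (adjusted p = 0.0643). With the replicate block the adjusted p of the 5 genes that passed ran from 0.316 (Cdca3) to 0.363 (Mki67).

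The promoters of 3 mitotic genes that fell are printed with the letters TTTGAA and CCAAT in capitals, on either strand. TTTGAA is the core of the cell cycle genes homology region and CCAAT the box bound by NF-Y, both known from promoters of late cell cycle genes. They are RefSeq sequences of build GRCm38.p6: Cdca3 at chr6:124829926-124830225, plus strand, Mki67 at chr7:135716330-135716629, minus strand, and Ckap2 at chr8:22185770-22186069, minus strand.
Cdca3: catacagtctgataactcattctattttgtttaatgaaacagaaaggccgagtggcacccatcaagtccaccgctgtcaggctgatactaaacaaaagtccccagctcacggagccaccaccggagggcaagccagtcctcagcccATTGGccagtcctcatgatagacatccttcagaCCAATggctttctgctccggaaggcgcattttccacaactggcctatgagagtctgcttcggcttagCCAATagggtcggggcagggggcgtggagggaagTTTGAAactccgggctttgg
Mki67: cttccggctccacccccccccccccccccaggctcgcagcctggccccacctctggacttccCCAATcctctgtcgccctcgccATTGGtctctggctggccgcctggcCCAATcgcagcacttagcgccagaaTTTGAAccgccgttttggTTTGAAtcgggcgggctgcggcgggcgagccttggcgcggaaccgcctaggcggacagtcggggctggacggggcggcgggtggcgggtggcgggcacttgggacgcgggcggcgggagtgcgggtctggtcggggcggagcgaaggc
Ckap2: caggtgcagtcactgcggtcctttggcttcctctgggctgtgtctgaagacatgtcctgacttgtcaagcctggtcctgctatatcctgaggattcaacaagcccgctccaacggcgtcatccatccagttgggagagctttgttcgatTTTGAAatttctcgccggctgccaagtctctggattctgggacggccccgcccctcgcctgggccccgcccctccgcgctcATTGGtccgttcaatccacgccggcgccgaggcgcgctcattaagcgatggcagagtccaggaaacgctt
TTTGAA was in 29 of the 40 mitotic genes with a promoter in the table (72.5%), in 4 of 30 DNA replication genes (13.3%) and in 18.1% of all 27025 promoters. CCAAT was in 30 of 40 (75%), 18 of 30 (60%) and 37.9%. The 29 mitotic genes with TTTGAA had a median difference of −0.81 and the 11 without it −0.60, given as a description with no test. In the 3 promoters printed no match of one motif overlaps a match of the other.

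DNA replication genes were lower too, by less. Of 37 measured 1 fell past the test and 0 rose. At an unadjusted p below 0.05, 19 were lower and 0 higher, where 4.99% of all genes were lower and 4.97% higher. The list level was −0.35 in each of the 3 VCF arrays, against −0.07 to 0.05 in control lungs. Ccne1, the cyclin that starts S phase, had −2.58, −2.59 and −2.52 in VCF lungs, against −1.77, −1.55, −1.84, −1.70 and −1.76 in control lungs. Neither group varied much, and the gene fell 1.79-fold (−0.84 ± 0.12, adjusted p = 0.0404, and 0.375 with the replicate block). Tk1, thymidine kinase, differed by −0.91 ± 0.17, Rad51ap1, a recombination factor, by −1.35 ± 0.26 and E2f1, the S-phase transcription factor, by −0.63 ± 0.13, each without overlap of the arrays and short of the threshold. For Rad51ap1 a second probe stood at −0.05 and was above background on 1 VCF and 3 control arrays. Cdkn1a, the p21 inhibitor of cyclin-dependent kinases, stood at 1.79, 1.91 and 1.61 in VCF lungs, against 0.33, 1.43, 0.86, 0.26 and 1.30 in control lungs (0.93 ± 0.27, adjusted p = 0.236). Of 24 p53 targets 0 passed, 2 were higher at an unadjusted p below 0.05 (4.97% of all genes were) and the median was 0.04. With the alike arrays averaged and control 2 left out, 15 DNA replication genes were lower and 1 higher at that p.

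**Figure D3:**
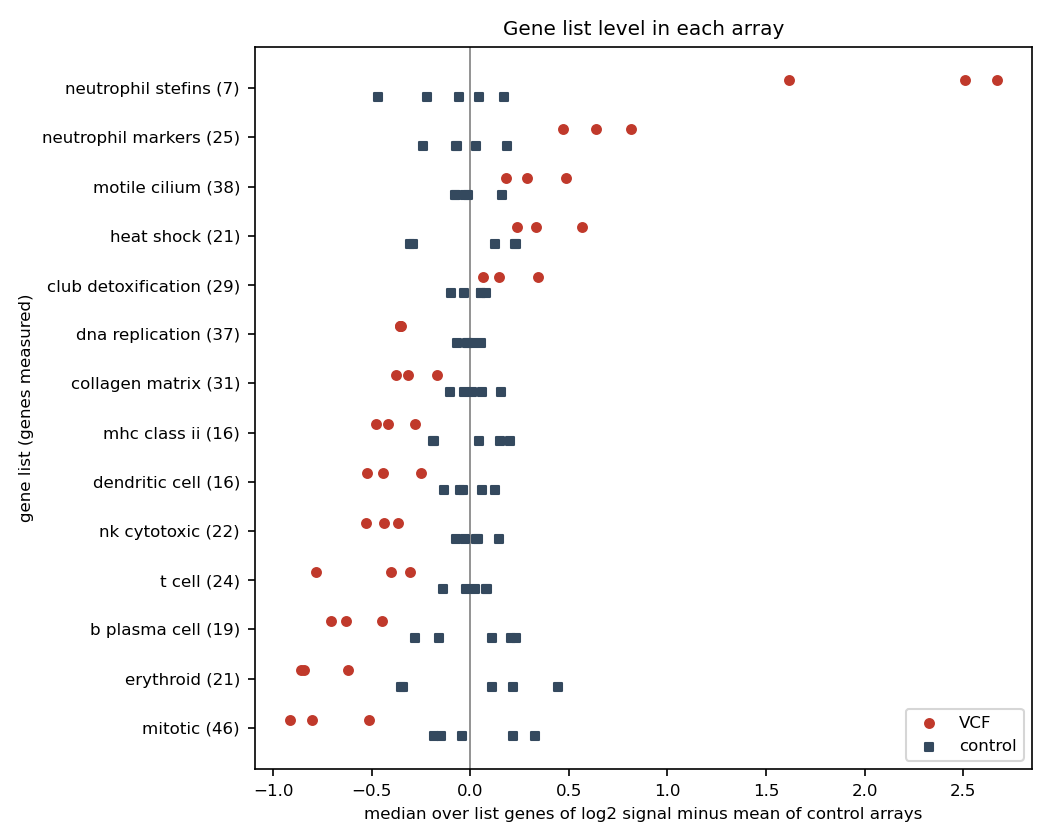
Level of 14 gene lists in each VCF array (circles) and control array (squares), as the median over list genes of the log2 signal minus the mean of the control arrays. The stefin list lies at 1.62 to 2.67 in VCF arrays, the mitotic list at −0.91 to −0.51, and the 2 groups stay apart in most of the lists drawn, though by small margins in several.

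Markers of lymphocytes and antigen-presenting cells were lower as lists, with no member past the test. Of 24 T cell markers 15 were lower and 0 higher at an unadjusted p below 0.05 (median −0.51), of 19 B and plasma cell markers 11 and 0 (−0.55), of 22 NK and cytotoxic genes 9 and 0 (−0.49), of 16 class II genes 7 and 1 (−0.39) and of 16 dendritic cell genes 5 and 0 (−0.42). Over all genes 4.99% were lower and 4.97% higher at that p. Each list had 0 members past limma's threshold in either direction. With the alike arrays averaged and control 2 left out, 12 T cell, 11 B cell, 3 NK, 7 class II and 5 dendritic cell genes were lower at an unadjusted p below 0.05. Without VCF 1, the dim array, 8 T cell (median −0.36), 4 NK and 3 dendritic cell genes were. Without VCF 2, 3 NK genes were lower, and without control 1 or without control 4, 9 T cell genes. Cd2, an adhesion receptor of T and NK cells, had 1.88, 2.24 and 2.07 in VCF lungs, against 2.84, 2.64, 2.68, 2.85 and 2.64 in control lungs, and missed the threshold by little (−0.67 ± 0.11, adjusted p = 0.0573). Thy1 (−0.70 ± 0.13) and Ccr7, the lymph node homing receptor (−0.83 ± 0.20), also lay below all controls.

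Cd79b, the signalling chain of the B cell receptor, had 3.02, 3.64 and 3.23 in VCF lungs, against 4.58, 4.06, 4.27, 4.51 and 3.84 in control lungs (−0.95 ± 0.19, adjusted p = 0.0909). Control 1 and 4 were the highest for Cd79b, and control 5 was the lowest. Klra8, an NK receptor of a family with near-identical members, differed by −0.53 ± 0.14 and Gzma, granzyme A, by −0.58 ± 0.22. H2-Ab1, a class II chain, stood at 5.70, 5.72 and 6.02 in VCF lungs and 6.23 to 6.56 in control lungs (−0.53 ± 0.13, adjusted p = 0.178). Cd74, the invariant chain, stood at 4.73 to 5.10 in VCF lungs and 5.10 to 5.74 in control lungs. Irf8, a transcription factor of dendritic cells and monocytes, differed by −0.60 ± 0.17, and Clec9a, the damage receptor of cross-presenting dendritic cells, by −0.79 ± 0.23. Of 15 mast cell and basophil genes 5 were lower and 1 higher at an unadjusted p below 0.05, where 4.99% of all genes were lower and 4.97% higher. Mcpt8, a basophil protease, stood at −4.88, −5.60 and −4.68 in VCF lungs and −3.97 to −3.00 in control lungs, with 1 of 3 VCF arrays above background. The level of the B cell list was −0.71, −0.45 and −0.63 in VCF lungs, against −0.19, −0.50 and −0.41 in CCF lungs, −0.40, −0.44 and −0.31 in RCF lungs and −0.28 to 0.23 in control lungs.

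Erythroid genes were lower in VCF lungs, with 13 of 21 lower and 0 higher at an unadjusted p below 0.05. The shares over all genes were 4.99% lower and 4.97% higher. In the list 0 passed the test and the median was −0.74. Without VCF 2, 4 were lower (median −0.60), and without VCF 1, 10 (median −1.12). Hbb-b2, an adult beta-globin, had 3.08, 2.59 and 3.29 in VCF lungs, against 3.86, 4.99, 5.31, 3.59 and 5.08 in control lungs (−1.58 ± 0.38, adjusted p = 0.156). Alas2, the first enzyme of haem synthesis in red cells, stood at 0.03, −1.03 and 0.46 in VCF lungs, against 0.33, 2.24, 3.06, 0.18 and 1.63 in control lungs. Control 1 and 4 were the lowest controls for both genes, and for Alas2 they lay within the VCF range. Hba-a1 (−0.92 ± 0.29) and Bpgm, which makes 2,3-bisphosphoglycerate (−0.70 ± 0.23), lay below all controls. Globin probes share signal among near-identical copies. Blood left in the lung was not measured and its part in these values, and in those of neutrophil and lymphocyte genes, was not tested.

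Among genes of detoxification 2 carboxylesterases fell. Ces2e, a carboxylesterase, had −2.21, −1.95 and −1.86 in VCF lungs, against −0.71, −0.71, −0.97, −0.88 and −0.88 in control lungs, and fell 2.26-fold (−1.18 ± 0.13, adjusted p = 0.02, and 0.327 with the replicate block). Its neighbour in the family, Ces2b, had −2.69, −2.51 and −2.75 in VCF lungs, against −1.49, −1.52, −1.75, −1.64 and −1.92 in control lungs, and fell 1.98-fold (−0.99 ± 0.14, adjusted p = 0.0401, and 0.343 with the replicate block). For both, the VCF arrays lay close together below every control, and since the copies are alike their probes may share signal. Of 29 measured genes of club cells and detoxification 1 fell past the test. At an unadjusted p below 0.05, 7 were higher and 3 lower, where 4.97% of all genes were higher and 4.99% lower. Gsta3, a glutathione transferase, differed by 0.60 ± 0.10 (adjusted p = 0.057), with 5.47, 5.58 and 5.59 in VCF lungs and 4.89 to 5.01 in control lungs. Sult1a1, a sulfotransferase, differed by 0.93 ± 0.18 and Cyp2b10, a cytochrome P450, by 0.55 ± 0.13, both without overlap. Cyp1a1, a cytochrome P450 induced by aromatic hydrocarbons, stood at −3.10, −3.65 and −3.88 in VCF lungs, against −1.53, −1.50, −2.10, −1.85 and −1.25 in control lungs (−1.90 ± 0.53, adjusted p = 0.223).

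Genes of motile cilia were higher as a list: 13 of 38 were higher and 1 lower at an unadjusted p below 0.05. The shares over all genes were 4.97% higher and 4.99% lower. In the list 0 passed the test, and the median was 0.32. Without VCF 2, 4 were higher, and with the alike arrays averaged and control 2 left out, 8. The list level was 0.29, 0.49 and 0.18 in VCF lungs and 0.41, 0.30 and 0.13 in CCF lungs. It was 0.17, 0.13 and −0.02 in RCF lungs and −0.08 to 0.16 in control lungs, so the VCF and CCF ranges overlapped. Foxj1, the master regulator of motile cilia, stood at 3.08, 3.33 and 2.95 in VCF lungs and 2.37 to 2.78 in control lungs (0.63 ± 0.21, adjusted p = 0.322). Rsph4a, a radial spoke protein (0.68 ± 0.16), and Dnah5, an outer dynein arm heavy chain (0.72 ± 0.24), also lay above all controls. With median scaling, which lowers all differences by about 0.10, 3 of 38 were higher. Alveolar type 1 and type 2 markers had 0 of 18 and 0 of 25 past the test, and medians of −0.14 and −0.07. At an unadjusted p below 0.05, 3 and 4 were lower, against 4.99% of all genes. Scd1, stearoyl-CoA desaturase of lipid synthesis, stood at 3.12, 3.39 and 3.47 in VCF lungs, against 4.22, 5.67, 4.62, 4.42 and 4.63 in control lungs, and control 2, the array with fat genes, was the highest (−1.39 ± 0.26, adjusted p = 0.0816, and 0.0402 without control 2). Etv5, a type 2 cell transcription factor, differed by −0.51 ± 0.12.

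Of endothelial genes Plvap fell. Plvap, the protein of the diaphragms of fenestrae and caveolae, had 3.51, 3.26 and 3.49 in VCF lungs, against 4.99, 4.42, 4.65, 4.56 and 4.20 in control lungs, and fell 2.21-fold (−1.14 ± 0.17, adjusted p = 0.0462, and 0.316 with the replicate block). No VCF array reached the lowest control. Apln, the peptide apelin of endothelial tip cells, differed by −1.43 ± 0.28 (adjusted p = 0.0927) with 1 VCF array, at 0.93, inside the control range, and Eng, endoglin, by −0.48 ± 0.14. The endothelial list as a whole had 1 of 32 past the test and a median of −0.06. At an unadjusted p below 0.05, 5 were lower and 1 higher, where 4.99% of all genes were lower and 4.97% higher. Cldn5, the tight junction protein of endothelium, stood at 5.77 to 6.29 in VCF lungs and 5.75 to 6.70 in control lungs.

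Genes of the collagen matrix were lower as a list, with 11 of 31 lower and 0 higher at an unadjusted p below 0.05. The shares over all genes were 4.99% lower and 4.97% higher. In the list 0 passed the test and the median was −0.35. Without VCF 2, 3 were lower (median −0.20), and without control 2, 13 (median −0.22). Col3a1, the chain of type III collagen, had 2.65, 2.28 and 2.99 in VCF lungs, against 3.81, 3.96, 4.11, 3.79 and 4.08 in control lungs (−1.31 ± 0.23, adjusted p = 0.063), and Col1a1 had 2.26, 1.87 and 2.05, against 2.64, 2.19, 2.80, 3.02 and 3.38 in control lungs (−0.75 ± 0.26, adjusted p = 0.336). The VCF arrays lay below every control for Col3a1, and control 2 lay within the VCF range for Col1a1. Mfap4 and Mfap5, microfibril-associated proteins, differed by −0.87 ± 0.23 and −0.57 ± 0.15. Lox, which cross-links collagen, stood the other way, at 1.46, 1.51 and 0.39 in VCF lungs and 0.02 to 0.44 in control lungs (0.99 ± 0.24, adjusted p = 0.157), while its relative Loxl1 stood at −0.85 ± 0.24. Cthrc1, a secreted protein of activated fibroblasts, differed by −0.88 ± 0.17 (adjusted p = 0.087). Of 22 fibroblast genes 0 passed, 6 were lower at an unadjusted p below 0.05 and the median was −0.07, and of 22 matrix metalloproteinase and inhibitor genes 0 passed, with 4 higher and 2 lower at an unadjusted p below 0.05.

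The gene with the smallest p was Crabp1, the cellular retinoic acid binding protein. It had −4.89, −4.62 and −4.23 in VCF lungs, against −2.40, −2.51, −2.34, −2.36 and −2.14 in control lungs, and was well above background on 2 of 3 VCF and 5 of 5 control arrays. The groups were more than 1 unit apart, and the gene fell 4.69-fold (−2.23 ± 0.23, adjusted p = 0.0192, and 0.316 with the replicate block). A second probe for Crabp1, dimmer and above background on 0 VCF and 2 control arrays, stood at −0.58. Of 19 genes of retinoid handling Crabp1 alone passed and the median was −0.03. Hpcal4, a neuronal calcium sensor, had −1.52, −1.59 and −1.61 in VCF lungs, against −0.22, −0.71, −0.68, −0.27 and −0.69 in control lungs, and fell 2.08-fold (−1.06 ± 0.15, adjusted p = 0.0404, and 0.363 with the replicate block). Colq, the collagen-like tail that anchors acetylcholinesterase, had 1.02, 1.02 and 1.42 in VCF lungs and 1.86 to 2.41 in control lungs, and fell 2.09-fold (adjusted p = 0.0484).

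Besides the stefins and Spp1, Eppin, Doc2b and Tcf23 rose. Eppin, a protease inhibitor best known from the epididymis, had −3.20, −2.75 and −3.41 in VCF lungs, against −5.54, −5.68, −4.40, −5.57 and −5.24 in control lungs (2.17 ± 0.28, adjusted p = 0.0373), and was above background on 3 of 5 control arrays. The difference was 2.64 within slide 1 and 0.99 within slide 2, and the CCF arrays were as high as the VCF arrays, at −3.13, −2.96 and −3.45. Doc2b, a calcium sensor of exocytosis that was also above background on 3 of 5 control arrays, had −2.70, −2.89 and −3.51 in VCF lungs, against −5.05, −5.04, −4.78, −4.97 and −4.12 in control lungs (1.76 ± 0.28, adjusted p = 0.0484). Tcf23, a basic helix-loop-helix factor, had 0.12, 0.43 and −1.01 in VCF lungs and −2.17 to −1.62 in control lungs (1.79 ± 0.28, adjusted p = 0.0484), and VCF 3, on slide 2, was the lowest. With the replicate block their adjusted p was 0.363, 0.343 and 0.417 in this order.

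Among the genes that missed the threshold and whose groups did not overlap, the 10 largest differences included more genes of myeloid cells. Slfn4, a schlafen of activated myeloid cells, stood at −2.01, −0.90 and −1.04 in VCF lungs, against −3.91, −3.47, −3.48, −4.01 and −3.67 in control lungs (2.39 ± 0.61, adjusted p = 0.183). Acod1, which makes itaconate in activated macrophages, stood at −2.03, −1.62 and −2.01 in VCF lungs and −5.02 to −2.65 in control lungs (2.09 ± 0.70, adjusted p = 0.318). Mrgpra2a and Mrgpra2b, near-identical receptors found on mouse neutrophils, differed by 2.18 ± 0.63 and 2.29 ± 0.50. Clca3a2, a chloride channel accessory protein, differed by 2.49 ± 0.41 (adjusted p = 0.057). Sycp2, a synaptonemal complex protein, was above background on 3 VCF and 0 control arrays (adjusted p = 0.253), so its rise has no exact size. For Sycp2 2.87-fold is a cautious estimate and not a tested minimum. Ptpn5, a neuronal phosphatase, differed by −2.17 ± 0.52 and was above background on 1 of 3 VCF arrays. Myl3, a myosin light chain of heart and slow muscle, stood at −1.86, −2.06 and −2.77 in VCF lungs, against −1.05, 3.65, 0.18, −1.02 and 0.05 in control lungs, where control 2 was far above the rest (−2.59 ± 0.93, adjusted p = 0.355).

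Heat shock genes and clock genes differed between the arrays within groups as well. Of 21 heat shock genes 0 passed and the median was 0.32. At an unadjusted p below 0.05, 5 were higher and 0 lower, where 4.97% of all genes were higher and 4.99% lower. With control 1 and 4 averaged 3 were higher. The list level was 0.33, 0.24 and 0.57 in VCF lungs and 0.26, 0.45 and 0.45 in CCF lungs. It was 0.22, 0.06 and −0.08 in RCF lungs and −0.30 to 0.23 in control lungs. Hspa1a, an inducible HSP70, stood at 3.10, 3.10 and 4.22 in VCF lungs, against 0.30, 1.46, 2.77, −0.04 and 2.57 in control lungs (2.06 ± 0.60, adjusted p = 0.243), and control 1 and 4 were the lowest. Of 19 clock genes 0 passed, with 4 higher and 2 lower at an unadjusted p below 0.05. Per2, a repressor of the clock, stood at 2.69, 3.09 and 3.49 in VCF lungs, against 1.75, 1.95, 2.66, 1.42 and 2.28 in control lungs, while Dbp and Nr1d1, clock outputs, stood at −0.99 ± 0.26 and −1.01 ± 0.32. The hour at which lungs were taken is not given in the labels, and its part was not tested. Housekeeping genes had 0 of 15 past the test, or at an unadjusted p below 0.05, and a median of −0.09. Metallothionein and zinc transport genes had 0 of 14 and a median of 0.06.

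The VCF arrays were also set against the arrays of the carbonized fibre, at the same dose and time. Here 39 genes were higher and 29 lower in VCF lungs past limma's adjusted p of 0.05, 68 in all (0.128% and 0.0948% of genes). With the alike arrays averaged 26 genes passed. Both comparisons use the same VCF arrays, so the values are given side by side. Of all 26 genes past the threshold against control, 13 passed in the same direction and 23 had the same sign. Of the 19 named genes among them, 13 passed in the same direction and 19 had the same sign. The genes were picked on the same VCF arrays, which favours the same sign in advance. Stfa1 differed by 3.43 ± 0.41 (adjusted p = 0.00725) and Cstdc4 by 3.85 ± 0.42 (adjusted p = 0.00587). The CCF arrays for Stfa1 stood at −3.94, −3.72 and −3.60 in CCF 1 to 3, below the control range. Of the 25 neutrophil markers 7 were higher past the test, among them Cxcr2 (3.89 ± 0.59, adjusted p = 0.023), Retnlg (2.87 ± 0.34, adjusted p = 0.00697), S100a8 (2.86 ± 0.40, adjusted p = 0.017) and Mmp8 (2.43 ± 0.35, adjusted p = 0.0175). Cxcr2 stood at 0.06, 0.77 and 2.07 in VCF lungs and at −2.92, −3.43 and −2.40 in CCF lungs. Of the 46 mitotic genes 7 were lower past the test, with Kif20a at −1.43 ± 0.15 (adjusted p = 0.00587) and Mki67 at −1.41 ± 0.17 (adjusted p = 0.00697). Ces2e, Ces2b, Ccne1, Crabp1, Hpcal4 and Plvap were lower too, while Spp1 (1.15 ± 0.27, adjusted p = 0.107) and Eppin (0.06 ± 0.31, adjusted p = 0.965) did not pass.

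Against the fired fibre 3 genes passed limma's threshold, all lower in VCF lungs (0.00981% of genes), with 2766 genes at an unadjusted p below 0.05. With the alike arrays averaged 0 passed (2039 at that p). They were Ces2e (−1.36 ± 0.15, adjusted p = 0.0284), Kif20a (−1.33 ± 0.15, adjusted p = 0.0295) and Adgre4, an adhesion receptor of macrophages (−1.40 ± 0.17, adjusted p = 0.0402). Stfa1 differed by 2.64 ± 0.41 (adjusted p = 0.0868), and the RCF arrays were uneven, at −2.55, −2.38 and −3.94, with RCF 1 and 2, the pair that was averaged, the higher. The list level of neutrophil markers was 0.47, 0.82 and 0.64 in VCF lungs and 0.46, 0.22 and −0.62 in RCF lungs. Of the 19 named genes 2 passed, and 19 had the same sign as against control. Of all 26 genes past the threshold against control, 2 passed and 25 had the same sign. They were picked on the same VCF arrays, which favours the same sign in advance. With the replicate block limma called 0 genes against RCF (3027 at an unadjusted p below 0.05).

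**Figure D4:**
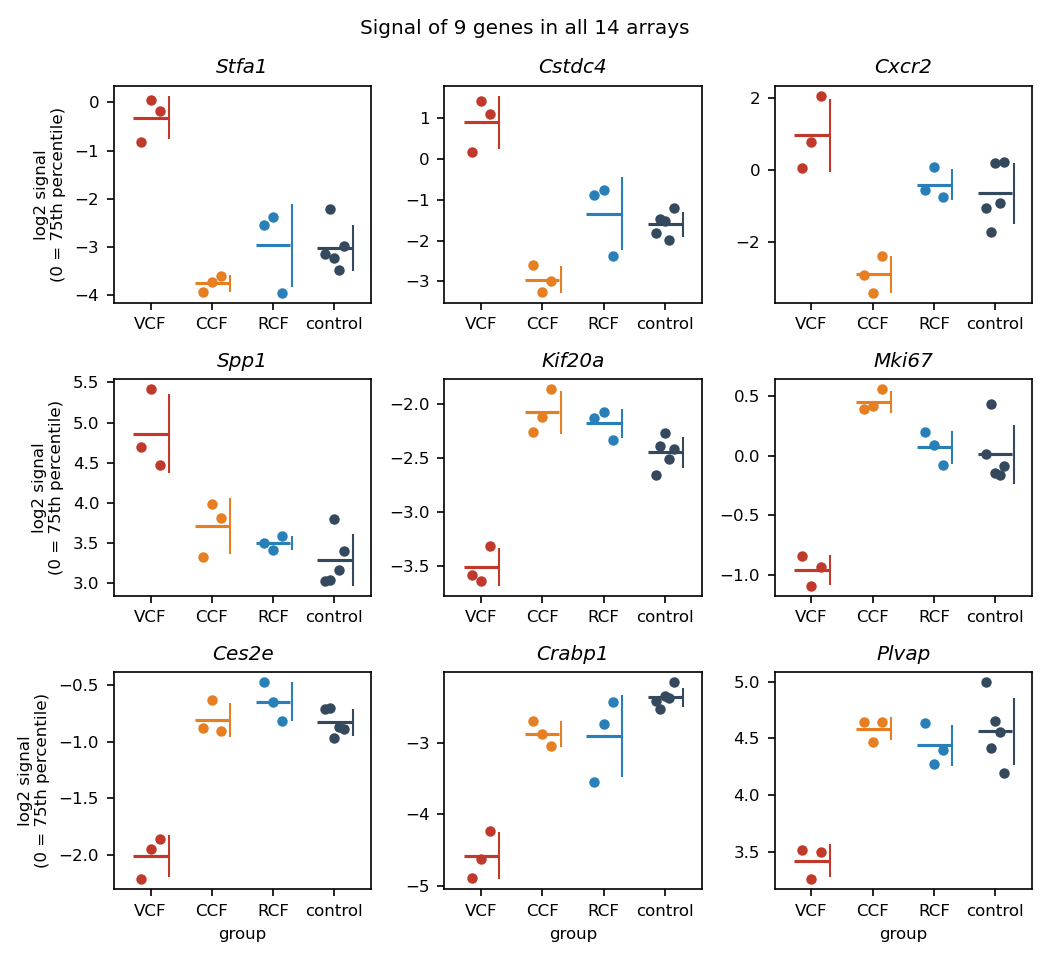
Log2 signal (0 = 75th percentile of the array) of 9 genes in all 14 arrays by group; each point is an array, horizontal lines are group means and vertical lines the SD. VCF arrays stand apart from the other 3 groups for Stfa1, Cstdc4, Kif20a, Mki67, Ces2e, Crabp1 and Plvap, while for Cxcr2 the CCF arrays are the lowest.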

How the data were processed

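RNA of 14 mouse lungs had been hybridised to 1-colour (Cy3) Agilent whole-genome arrays, 3 of VCF, 3 of CCF, 3 of RCF and 5 of control lungs. The deposited scanner files hold spot intensity values, background-subtracted as processed signal by Feature Extraction 10.7.3.1, per the file headers. A deposited table of log2 values, set against the scanner files, equals log2 of the processed signal minus 1 constant per array. The interquartile range of that difference over probes was at most 5.33e-07 in any array, so no offset per gene was seen. The deposited table was used only as an alternative. The intensity of spots that are no controls was taken as log2 and the 75th percentile of each array was subtracted. Probes that cleared the background on 3 or more of 14 arrays were kept, spots of a probe were averaged, and a gene was represented by its probe of highest mean. All 4 groups were fitted together in limma 3.58.1 (R 4.3.3, lmFit and eBayes), with Benjamini-Hochberg adjustment over all genes. The number of arrays limits the precision.

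For same-numbered VCF and control arrays the deviations had r = 0.17, 0.19 and 0.62 for numbers 1 to 3. Arrays of different numbers were not set beside them in this way, so these values cannot show that the numbers pair the arrays. Each same-numbered VCF and control pair lay on 1 slide, so pairing and slide cannot be told apart here. The numbers were taken as pairs without such a baseline, and the replicate block is given beside the results. VCF and RCF pairs had r = 0.30, 0.20 and 0.21, with numbers 2 and 3 on different slides. Of the VCF and CCF pairs, number 2 had r = −0.09, so these were not read as pairs. The replicate block was still fitted with all groups together, so its term for the array number covered the CCF arrays too. Named were all genes past the threshold with an established symbol, up to 6 members of each of 57 gene lists, lung markers, and the 10 largest differences among other genes without overlap. The members, lists and rule were chosen with earlier results of these data known. The scripts were tested on simulated data. Alternatives covered scaling, background correction, filter, probe summary, slide, array weights, each array left out, and, chosen after seeing the data, averaging of arrays that were alike. Promoters came from RefSeq, build GRCm38.p6. Figures were drawn with matplotlib 3.10.9.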

Additional observations from a re-analysis of the deposited data

Results flagged for a closer look

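In a single control array the value lay farther from the other 4 than Dixon's criterion allows in 18 of 166 tests. For independent tests chance gives about 1 in 20. These tests share the same control arrays and, between genes and lists, some genes, so no excess over chance can be read from the count. Control 2 carried most of the 18. In that array Myl3 stood at 3.65, Shcbp1 at −3.88, Cstdc5 at 2.07, Stfa3 at −0.64, Birc5 at 0.34, Scd1 at 5.67 and Loxl1 at 1.22. The list levels of control 2 were 4.30 for skeletal muscle, 4.52 for squamous epithelium, 0.80 for mesothelium and 0.26 for the respiratory chain, on the log2 scale relative to the control mean. In control 5 Doc2b stood at −4.12, Trem3 at −1.55, Foxj1 at 2.78 and Lox at 0.44, and the motile cilium list at 0.16, each the highest control. In control 4 Stfa2l1 stood lowest, at −1.54, and the retinoid list, also the lowest control, at −0.074.

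VCF lungs differed from CCF lungs, past limma's adjusted threshold, in 21 of the genes named for these comparisons. The stefins Cstdc4 (3.85), Stfa1 (3.43), Stfa2 (4.07) and Stfa2l1 (3.80) were higher in VCF lungs, as were Cxcr2 (3.89), Retnlg (2.87), S100a8 (2.86), Mmp8 (2.43) and Trem3 (2.05). The division genes Ckap2 (−1.80), Shcbp1 (−1.75), Kif20a (−1.43), Mki67 (−1.41), Cdca3 (−1.35), Birc5 (−1.08) and Ccne1 (−0.88) were lower in VCF lungs. Shcbp1 was not well above background in any VCF array, so its value is no exact size. Crabp1 (−1.71), Ces2b (−1.32), Ces2e (−1.20), Plvap (−1.17) and Hpcal4 (−1.08) were lower too. VCF lungs differed from RCF lungs in Ces2e (−1.36) and Kif20a (−1.33).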

How the results depend on the processing

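The number of genes past the threshold moved with most choices, while none of the 19 named genes past the threshold changed sign in an alternative that measured it. Medians of lists near 0 did, as did those of squamous epithelium (−1.23 to 0.12), adipocyte (−0.24 to 1.87) and cartilage (−0.39 to 0.69). Against control (26 genes) it was 96 with probes above background on all arrays, 0 with control 1 and 4 averaged, 1 with RCF 1 and 2 averaged too, 0 when control 2 was left out as well, 716 with array weights, 95 with slide as a random block, and 0 with median scaling, without the filter on dim probes, with only the groups compared, with slides 1 and 2 only and with the replicate block. At an unadjusted p below 0.05 those settings of 0 gave 1697 to 2789 genes in limma. Against CCF (68 genes) it was 190 with probes above background on all arrays, 26 with alike arrays averaged, 273 with array weights, 13 with median scaling, 23 without the filter, 0 with only the groups compared, 0 with the replicate block (4297 at an unadjusted p below 0.05, and the numbers do not pair these arrays), 563 with slide as a fixed block, 656 with slide as a random block and 9 with slides 1 and 2 only. Against RCF (3 genes) it was 10 with probes above background on all arrays, 1262 with array weights, 7 with slide as a fixed block, and 0 with alike arrays averaged, median scaling, no filter, normexp and quantile, only the groups compared, the replicate block, and slides 1 and 2 only, where 1472 to 3027 genes had an unadjusted p below 0.05. Leaving out 1 array gave 0 to 28 genes against control, 21 to 30 against CCF and 0 to 26 against RCF. Against control it gave 0 without VCF 1 and without control 4, 2 without VCF 2 and without control 1, 6 without control 2 and 8 without control 5. The 28 genes found without VCF 3 shared 12 with the 26. Of the 19 named genes, Cstdc4, Shcbp1 and Mki67 passed in 0 of these 8 fits, and no gene passed in more than 5. The arrays of the 19 did not overlap, so a kept sign says little of them. The causes were not tested. Median scaling moved the median over all genes to −0.10. VCF 1, at 49.4% of probes above background, limits what can be said of dim genes.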

Other observations

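Further lists were measured in VCF and control lungs, with 0 members past limma's threshold unless stated. Counts are at an unadjusted p below 0.05, where 4.97% of all genes were higher and 4.99% lower. Chemokine ligands had 8 of 28 lower and 1 higher at an unadjusted p below 0.05 (median −0.27; 3 lower without VCF 1), and chemokine receptors 4 lower and 2 higher of 15 (−0.24). Inflammasome and interleukin-1 genes had 4 higher and 2 lower of 21 (−0.01), eosinophil and type 2 genes 3 and 2 of 20 (−0.11), lipid-laden macrophage genes 2 and 2 of 20, with Spp1 past the threshold (−0.05), NF-kB feedback genes 1 and 3 of 23 (0.02), immediate early genes 2 and 0 of 28 (0.12), platelet genes 2 and 1 of 19 (0.07), and lysyl oxidases and relatives 2 and 1 of 11 (0.05).

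Respiratory chain genes had 3 of 30 lower (median −0.21), with 27 of 30 below 0, lysosome genes 3 of 30 lower (−0.15), cholesterol synthesis genes 4 lower and 1 higher of 27 (−0.10) and ER stress genes 1 lower of 23 (0.02). Airway secretory genes had 1 higher of 23 (0.21), aryl hydrocarbon receptor targets 1 lower of 8 (−0.03), smooth muscle genes 1 lower of 19 (−0.17) and epithelial junction genes 0 of 22 (0.00). Of lists for other tissues, heart muscle had 1 lower of 25 (−0.16), skeletal muscle 2 lower of 14 (−1.31), squamous epithelium 1 lower of 16 (−0.50) and adipocyte 1 lower of 19 (0.35). Without control 2 the medians were −0.23 for skeletal muscle, 0.11 for squamous epithelium and 1.05 for adipocyte. Cartilage had 0 of 7 (0.44), thymus 1 higher and 2 lower of 7 (−0.18), mesothelium 2 higher of 11 (0.22) and neuroendocrine cells 1 higher of 13 (−0.11).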
